A study of Gasterosteus aculeatus with 31 samples.

Results

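Male and female orphaned threespine stickleback (Gasterosteus aculeatus) were compared by ATAC-seq of the brain, an assay in which the transposase Tn5 inserts sequencing adapters into accessible DNA. The comparison covers 7 males and 8 females, 15 of the 31 fish in the series, chosen by the care label Day 0, and all 102149 peaks in the count table. The other 16 fish (8 males and 8 females, Day 10) were raised by their fathers and serve here only to show where the orphaned fish do or do not differ from them. All fish were offspring of wild-caught fathers from Putah Creek, California, and the orphaned fish were reared by hand without the father. At 6 to 8 months of age, before sexual maturity, each fish of both care groups met a model sculpin, a predator, in an arena, and the brain was collected later, so no group was free of that encounter. No genotype beyond sex was given, and sex had been called with a DNA marker. Each library came from the left or right side of 1 brain.

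Sex in this species is set by an X and a Y chromosome, males being XY and females XX, and linkage group XIX (groupXIX) is that sex chromosome pair. Along most of its length the Y has diverged from the X, whereas near 1 end the X and Y still recombine. In nature the father alone guards and fans the eggs and tends the fry, and this care is what the orphaned fish lacked. A male has 1 X copy and a female 2, and counts were not corrected for that, so a lower groupXIX count in males need not mean less accessible chromatin. The count table names 21 linkage groups and 667 unplaced scaffolds and no sequence as a Y. How reads from the Y were treated was not given in the sources used here. A higher count in males therefore need not mean more accessible chromatin either. The peaks carry no gene names, so neither genes nor the brain's marker genes could be checked, and each library mixes the cell types of the tissue: fewer cells of a type and less accessible DNA per cell cannot be told apart.

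Fish whose identifiers begin with the same number were read as brother and sister, an inference from the identifiers, since the labels call the design half-sib without listing families. This gave 7 brother-sister pairs and 1 female, of family 4, without a brother. The libraries held 3603879 to 7746584 counts (median 5068927), and these totals did not separate the sexes (two-sided exact permutation test over fish, p = 0.473). Left brain sides made up 2 of the 7 male and 3 of the 8 female libraries. Brother and sister were sampled on the same brain side in 3 of the 7 pairs. The male of family 22 stood farthest from the other orphaned fish, with a mean correlation of 0.814 in log2 CPM against 0.817 to 0.882 in the other 14, and it had the highest scaling factor, 1.05. The female of family 39 came close, with a mean correlation of 0.817 and a scaling factor of 1.047 against 1.054. Results that change without the male of family 22 are given with and without it.

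The share of counts on groupXIX was lower in every male than in every female. It was 3.50% ± 0.0553 (SD, n = 7) in males, with a lowest, median and highest value of 3.40%, 3.50% and 3.58%. In females it was 4.45% ± 0.0449 (SD, n = 8), with 4.39%, 4.45% and 4.52%. The sexes therefore did not overlap, and the sex labels and the counts went together in all 15 fish. The difference of -0.954 percentage points gave p = 0.0001554 in a two-sided exact permutation test over fish, the smallest value that this number of fish allows. In each of the 7 pairs the brother had the lower share, at 0.768 to 0.815 times that of his sister. Within the left sides the difference was -0.992 and within the right sides -0.934 percentage points. Within the first, the second and the third stretch of library numbers, which stand in for preparation batches of 10 to 11 libraries whose members the labels do not list, it was -0.966, -0.996 and -0.888.

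The deficit in males was not even along the chromosome. Summed counts, scaled to the counts off groupXIX, were compared over 4 stretches: the first 2 Mb, 2 to 4 Mb, 4 to 12 Mb and beyond 12 Mb. In the first 2 Mb males stood at 1.03 ± 0.0555 of the female mean (SD, n = 7), and individual males ran from 0.933 to 1.11, on both sides of the female mean. From 2 to 4 Mb males stood at 0.910 ± 0.0611, with single fish from 0.813 to 0.972. From 4 to 12 Mb they stood at 0.568 ± 0.0259, with single fish from 0.520 to 0.6003, all below the lowest female at 0.947. Beyond 12 Mb they stood at 0.933 ± 0.0414, with single fish from 0.856 to 0.974, overlapping the females under this scaling. Two-sided exact permutation tests, adjusted over the 4 stretches, gave p = 0.336, 0.00477, 0.000622 and 0.00477 in this order along the chromosome. The stretch limits were set with earlier results of these data known. These p-values therefore give no separate support for where the deficit begins and ends. Within the 3 stretches of library numbers the ratio from 4 to 12 Mb was 0.567, 0.543 and 0.597, from 2 to 4 Mb 0.892, 0.881 and 0.977, and beyond 12 Mb 0.924, 0.905 and 0.965. On right sides alone, 5 males against 5 females, the ratio was 0.577 from 4 to 12 Mb (exact p = 0.00794), while 0.929 from 2 to 4 Mb (exact p = 0.0635) and 0.951 beyond 12 Mb (exact p = 0.0952) were not past the threshold.

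Pair by pair the order was the same in the third stretch and mixed elsewhere. From 4 to 12 Mb all 7 brothers were below their sisters, at 0.517 to 0.634 times the sister's count, and in each pair 93.9% to 96.9% of the peaks there had a lower scaled count in the brother. Off groupXIX that share was 49.8% to 52.4%. Beyond 12 Mb 6 of 7 brothers were lower, from 2 to 4 Mb 5 of 7, and in the first 2 Mb 3 of 7. An exact test flipping the signs of the 7 pair differences gave unadjusted p = 0.0156 from 4 to 12 Mb. The same test gave 0.0469 beyond 12 Mb and 0.0625 from 2 to 4 Mb, the latter not past the threshold. The male of family 22 had the lowest scaled count of the 7 males in all 4 stretches, and the male of family 39 the highest. With counts off groupXIX as the library size and no further factor, the spread of males in the third stretch shrank to 0.559 ± 0.00896 (SD, n = 7). Under that setting the sexes also separated fully in the second and the fourth stretch. From 2 to 4 Mb males ran from 0.851 to 0.943 and females from 0.958 to 1.05. Beyond 12 Mb males ran from 0.896 to 0.932 and females from 0.984 to 1.02. Exact permutation over fish gave p = 0.0001554 for each of these 2 stretches.

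**Figure D1:**
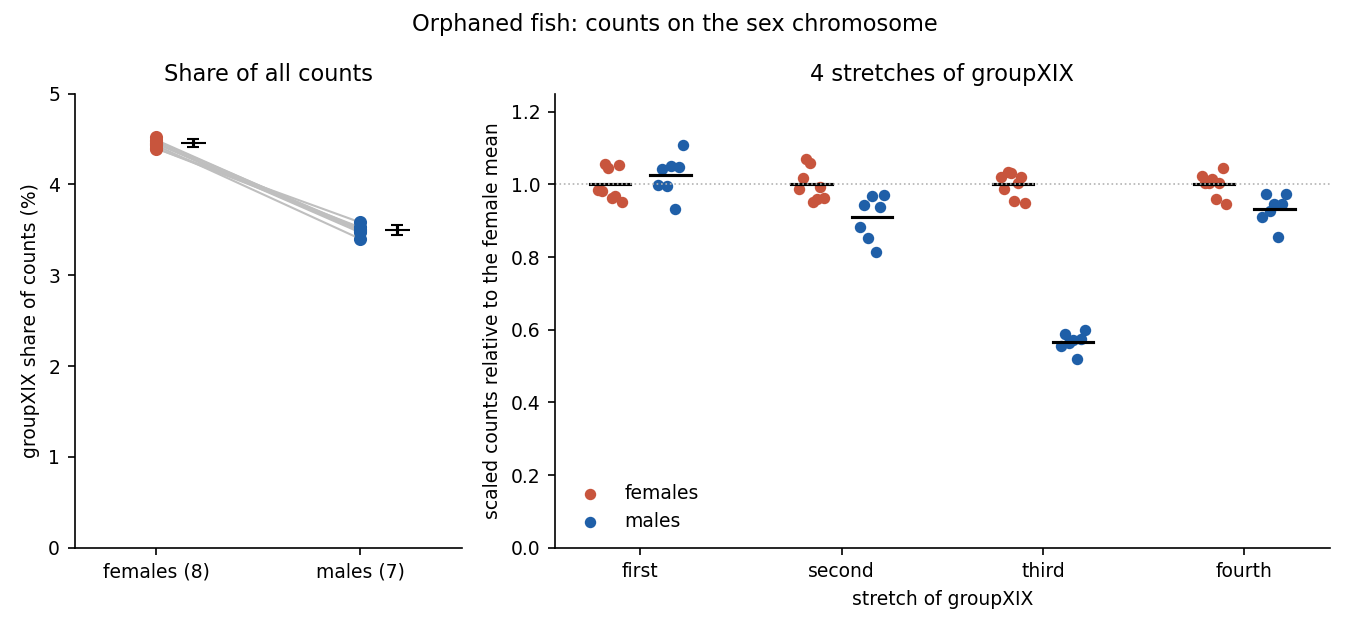
Left, share of all counts on groupXIX (%) in each orphaned fish, with grey lines joining brothers and sisters and bars for the mean and SD. Right, scaled counts of each fish relative to the female mean in the 4 stretches of groupXIX (first 2 Mb, 2 to 4 Mb, 4 to 12 Mb and beyond 12 Mb), with short black lines for the group means. The 7 males lie at 3.40% to 3.58% and the 8 females at 4.39% to 4.52%, and in the third stretch the males gather at 0.520 to 0.6003.

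Windows of 1 Mb placed the steps more closely. Males stood at 0.937 ± 0.0706 of the female mean from 2 to 3 Mb, at 0.880 ± 0.0547 from 3 to 4 Mb and at 0.513 ± 0.0249 from 4 to 5 Mb (SD, n = 7). From 4 to 12 Mb the 8 windows ran from 0.513 to 0.612, the highest value being that of 6 to 7 Mb. On the far side the ratio was 0.585 ± 0.0327 from 11 to 12 Mb, 0.892 ± 0.0326 from 12 to 13 Mb and 1.01 ± 0.0445 from 13 to 14 Mb. From there it declined towards the end of the chromosome, through 0.962 from 15 to 16 Mb and 0.921 from 17 to 18 Mb to 0.840 from 19 to 20 Mb and 0.812 in the last window, which holds 27 peaks. In 12 of the 21 windows every male was below every female, and these were the 10 consecutive windows from 3 to 13 Mb, with those from 18 to 19 and 19 to 20 Mb.

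The 392 windows of the same size on the other 20 linkage groups ran from 0.981 to 1.05 with a median of 1.02, so every window of groupXIX beyond 15 Mb lay below that range. The scaling factor moves all windows of a library together, so a median above 1 is not itself a sex difference. In 100 kb windows the near edge was not a single step. The ratio was 0.997 from 2.4 to 2.5 Mb, 0.619 ± 0.0460 from 2.5 to 2.6 Mb, 0.988 from 3.0 to 3.1 Mb and 0.655 from 3.9 to 4.0 Mb, and it was 0.452 ± 0.0536 from 4.1 to 4.2 Mb. At the far edge it was 0.671 ± 0.0428 from 12.0 to 12.1 Mb and 0.963 ± 0.0536 in the next window. A lower value returned at 12.6 to 12.7 Mb, where males stood at 0.618 ± 0.0299 over 10 peaks.

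**Figure D2:**
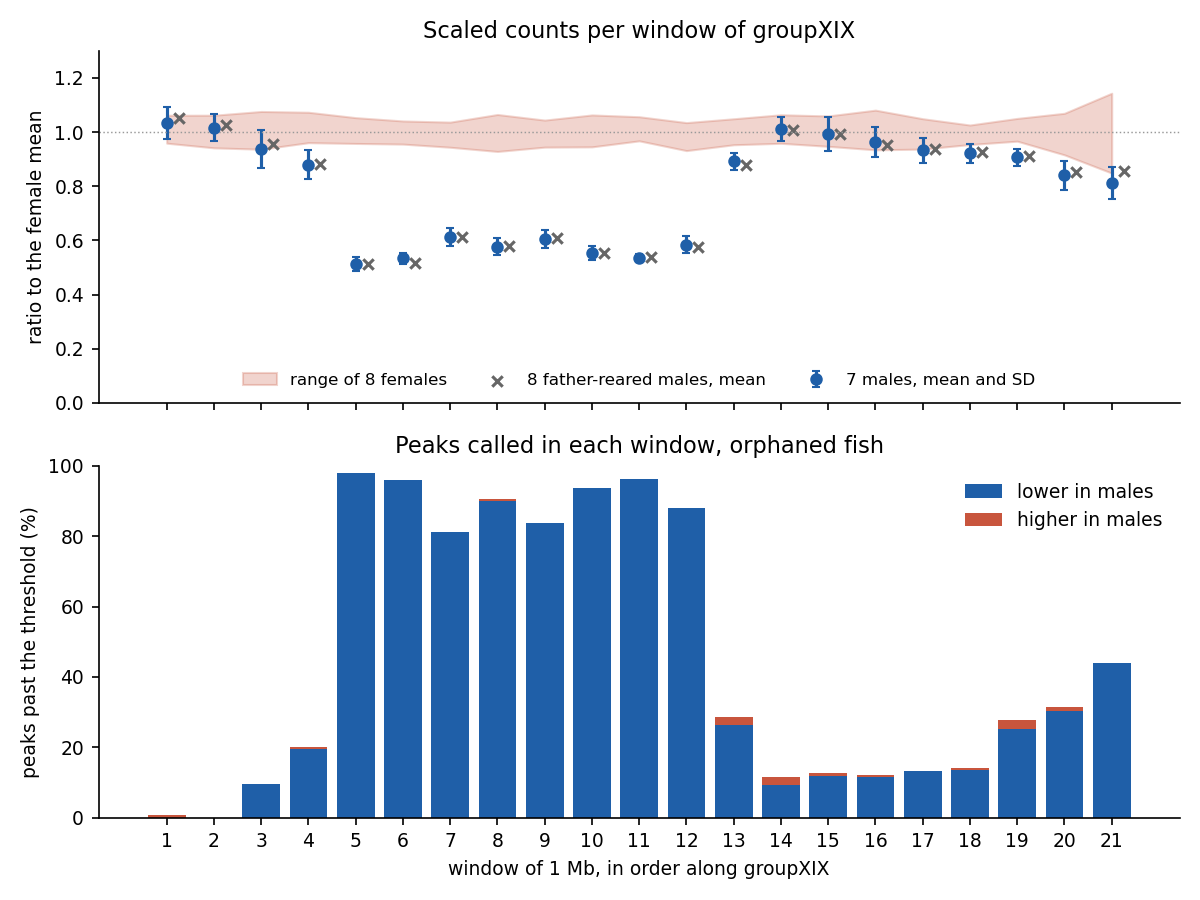
Top, scaled counts of orphaned males relative to the orphaned female mean (points, mean and SD over 7 males) in consecutive 1 Mb windows of groupXIX, with the range of the 8 females shaded and the mean ratio of the 8 father-reared males as crosses. Bottom, percent of tested peaks in each window past the threshold in orphaned fish. Windows 5 to 12 hold ratios of 0.513 to 0.612 and most of the peaks lower in males.

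Peaks were then tested one at a time. Of the 102149 peaks 100571 had enough counts, 4338 on groupXIX and 96233 elsewhere, and edgeR's quasi-likelihood test with a Benjamini-Hochberg adjusted p under 0.05 was the threshold. It was passed by 2050 peaks, 2.04% of those tested. On groupXIX 1902 peaks were lower and 28 higher in males, together 44.5% of the tested peaks there. Off groupXIX 17 were lower and 103 higher, together 0.125%. At an unadjusted p under 0.05 there were 1994 lower and 1982 higher peaks off groupXIX, 4.13% of those tested, so at that looser limit both directions were near equal in number. For 92.8% of the peaks off groupXIX the 95% interval of the sex difference lay within 1.5-fold in either direction, and for 99.7% within 2-fold. Without the male of family 22 the calls off groupXIX rose to 269 higher and 56 lower, and those on groupXIX became 51 higher. With p-values adjusted on and off groupXIX separately there were 142 higher peaks on groupXIX, and 41 higher and 1 lower off it. The main adjustment ran over all peaks together, where groupXIX supplied most of the calls. Its limit of 0.05 therefore does not hold for the 103 higher and 17 lower peaks off groupXIX taken alone.

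The calls followed the stretches. In the first 2 Mb 0 of 426 tested peaks were lower and 2 were higher, with 9 lower and 12 higher at an unadjusted p under 0.05, and DESeq2 called 1888 lower peaks over the whole of groupXIX. From 2 to 4 Mb 52 of 355 were lower and 1 was higher, and from 4 to 12 Mb 1520 of 1683 were lower and 1 was higher. Beyond 12 Mb 330 of 1874 were lower and 24 were higher. The median log2 difference, males minus females, was 0.00 in the first stretch, -0.14 in the second, -0.95 in the third and -0.08 in the fourth, against 0.00 off groupXIX. On this scale -1 stands for a male level at 0.5 of the female level.

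The third stretch thus had its main body of differences near -1 with a smaller shoulder towards 0, and the second and the fourth a main body near 0 with a long lower side. Beyond 12 Mb the 330 lower peaks had a median of -0.85, against -0.97 for the 1520 lower peaks of the third stretch. Only peaks past the threshold enter these 2 medians, which keeps both away from 0. By 1 Mb window beyond 12 Mb the median of the lower peaks ran from -0.91 to -0.71. Of these 330, 61.5% had an adjacent tested peak that was also lower, against 22.0% of the peaks there that were not called. They fell into 190 runs, of which 127 were single peaks and the longest held 12. From 2 to 4 Mb the 52 lower peaks fell into 29 runs, the longest of 7.

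**Figure D3:**
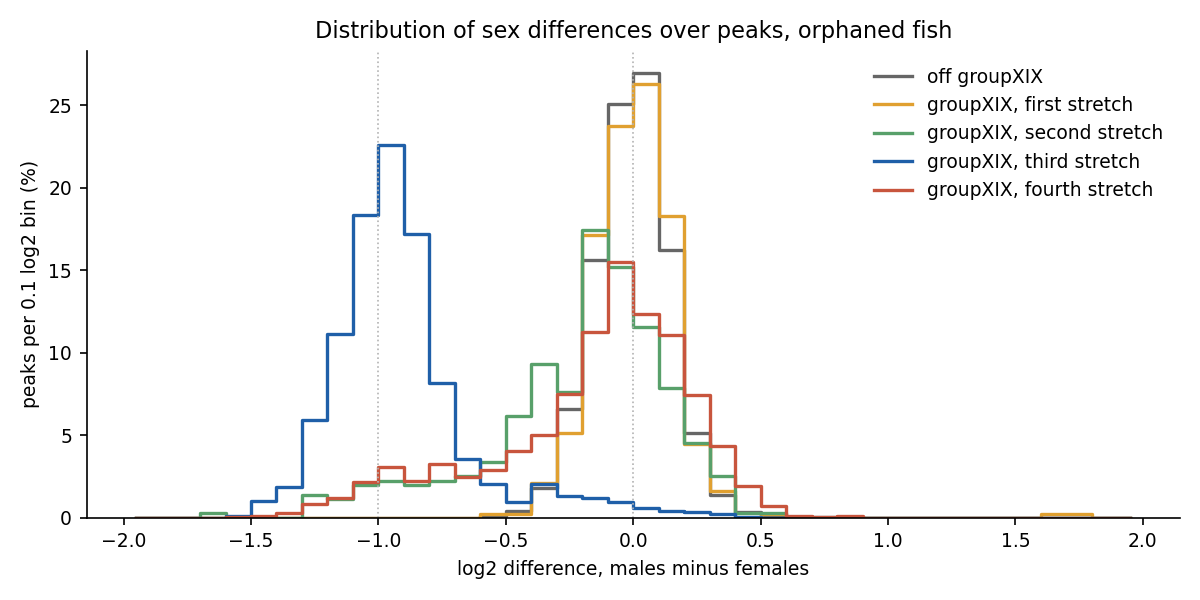
Distribution over peaks of the log2 difference, males minus females, in orphaned fish, as percent of tested peaks per bin of 0.1, off groupXIX and in its 4 stretches. The third stretch centres near -1 with a median of -0.95, and the second and the fourth stretch show a main body near 0 with a tail to lower values.

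Within 4 to 12 Mb the differences were narrowly spread. Of the 1683 tested peaks 69.2% had a log2 difference between -1.2 and -0.8. In 4 classes of like size by mean CPM, from the weakest to the strongest peaks, the median log2 difference was -1.03, -0.99, -0.92 and -0.87. That mean covers both sexes, so a peak less reduced in males also ranks higher. The order of these medians is therefore partly built in. The strongest peak past the threshold, groupXIX 10099628 to 10100028, had a lowest, median and highest level of 31.1, 44.4 and 49.8 CPM (counts scaled to those off groupXIX) in males and 57.4, 82.9 and 101 CPM in females. Every male lay below every female. The log2 difference was -0.95 ± 0.14 (SE) with adjusted p = 1.71e-06 in edgeR's quasi-likelihood test. At groupXIX 8051328 to 8051728 males had 18.2, 28.9 and 43.8 CPM and females 44.9, 54.9 and 67.0 CPM, again without overlap, with a log2 difference of -0.82 ± 0.14. At groupXIX 7633076 to 7633476 males had 23.2, 35.5 and 42.6 CPM and females 40.7, 53.0 and 66.0 CPM, where 5 of 7 males lay below every female, with a log2 difference of -0.62 ± 0.13.

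A minority of peaks inside 4 to 12 Mb had a smaller deficit or none. In 137 of the 1683 peaks (8.14%) the log2 difference was above -0.5, and in 28 it was above 0. Of the 137, 4 were still past the threshold as lower in males. These 137 had a median log2 difference of -0.23 in orphaned and -0.20 in father-reared fish. They fell into 75 runs, and the longest, 8 peaks between groupXIX 11944510 and 11970489, had log2 differences of -0.39 to 0.18. The 3 strongest peaks that did not pass the threshold were among the strongest of the stretch. At groupXIX 8185198 to 8185598 males had a lowest, median and highest level of 43.5, 71.0 and 79.6 CPM and females 43.1, 60.9 and 67.0 CPM, a log2 difference of 0.17 ± 0.14 (SE) with adjusted p = 0.969 in edgeR's quasi-likelihood test.

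There 4 of the 7 males lay above every female. At groupXIX 8846800 to 8847200 males had 46.1, 53.2 and 74.4 CPM and females 41.3, 60.0 and 68.4 CPM, a log2 difference of -0.01 ± 0.13. At groupXIX 7382380 to 7382780 males had 34.6, 54.9 and 71.0 CPM and females 29.4, 51.8 and 72.2 CPM, a log2 difference of 0.14 ± 0.15. In both of these the sexes overlapped. The same 3 peaks had log2 differences of 0.19, 0.07 and 0.29 in father-reared fish. The single peak of the stretch that was higher in males, groupXIX 7569454 to 7569854, is outside the naming rule and was singled out for its position: males had 29.1, 38.2 and 46.1 CPM and females 22.6, 27.2 and 32.6 CPM, with a log2 difference of 0.46 ± 0.12.

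The 6 peaks of groupXIX with the lowest log2 differences had male levels below 0.5 of the female level in the fit. They were chosen as the lowest in these fish. In father-reared fish their log2 differences were smaller in size, from -0.94 to -0.42, so none was below 0.5 of the female level there. At groupXIX 2524067 to 2524743, between 2 and 4 Mb, males had 0.627, 1.33 and 2.98 CPM and females 2.41, 3.40 and 8.27 CPM, and 6 of 7 males lay below every female. The log2 difference was -1.63 ± 0.30 (SE), adjusted p = 0.000182 by edgeR's quasi-likelihood test. In father-reared fish the same peak had -0.42 ± 0.27 and did not pass the threshold (adjusted p = 1.00), although the difference between care groups did not pass either (interaction adjusted p = 1.00). At groupXIX 12203827 to 12204227, just past 12 Mb, males had 1.253, 2.07 and 3.34 CPM and females 4.81, 6.55 and 8.81 CPM, without overlap, a log2 difference of -1.56 ± 0.20.

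The other 4 lay within 4 to 12 Mb. At groupXIX 8859853 to 8860253 males had 0.826, 1.98 and 2.66 CPM and females 4.00, 5.47 and 7.93 CPM. At groupXIX 5829639 to 5830039 males had 2.15, 2.72 and 4.18 CPM and females 6.66, 8.52 and 10.7 CPM. At groupXIX 5373383 to 5373783 males had 1.19, 2.07 and 3.46 CPM and females 4.73, 6.89 and 7.61 CPM. In these 3 peaks every male was below every female, and the log2 differences were -1.55 ± 0.23, -1.503 ± 0.17 and -1.496 ± 0.21 (SE). At groupXIX 8627906 to 8628306 the spread was wider, with 0.627, 2.63 and 7.42 CPM in males and 2.26, 9.03 and 14.3 CPM in females, and only 3 of 7 males lay below every female. In father-reared fish these 4 peaks, in the order given, had log2 differences of -0.77, -0.85, -0.77 and -0.89. There groupXIX 5373383 did not pass the threshold (adjusted p = 0.0549, edgeR's quasi-likelihood test). Over the 93 peaks of the stretch with the lowest log2 differences (5.53%) the median was -1.32 in orphaned fish, where they were chosen, and -1.03 in father-reared fish.

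The 28 peaks of groupXIX that were higher in males were mostly small differences beyond 12 Mb. Their median log2 difference was 0.52, and 24 of the 28 lay beyond 12 Mb. The largest was in the first 2 Mb: at groupXIX 415478 to 415878 males had a lowest, median and highest level of 2.09, 2.63 and 6.92 CPM and females 0, 0.644 and 2.39 CPM, and 4 of 7 males lay above every female. The log2 difference was 1.74 ± 0.38 (SE) with adjusted p = 0.00196 in edgeR's quasi-likelihood test. A neighbour within 10 kb, groupXIX 420676 to 421076, had 6.73, 9.71 and 16.3 CPM in males and 0.566, 3.67 and 5.33 CPM in females, without overlap. Its log2 difference was 1.63 ± 0.21. Both were also higher in father-reared males, by 1.43 ± 0.39 and 1.42 ± 0.24 on the log2 scale.

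Beyond 12 Mb the leading peak, groupXIX 18670782 to 18671182, had 14.3, 24.0 and 29.7 CPM in males and 8.88, 14.4 and 16.9 CPM in females, a log2 difference of 0.85 ± 0.14 (SE), and the male of family 22 was the only male within the female range. At groupXIX 14092512 to 14092912 males had 15.7, 17.4 and 23.0 CPM and females 8.31, 10.2 and 12.8 CPM, a log2 difference of 0.84 ± 0.12. At groupXIX 13214997 to 13215397 males had 7.41, 8.40 and 10.4 CPM and females 4.16, 5.01 and 7.35 CPM, a log2 difference of 0.79 ± 0.14. The sexes did not overlap in the last 2. At groupXIX 18078143 to 18078543 males had 8.98, 12.2 and 13.3 CPM and females 5.25, 7.02 and 9.90 CPM, and at groupXIX 12441373 to 12441773 males had 5.97, 7.17 and 9.71 CPM and females 3.11, 4.94 and 7.21 CPM. These overlapped, the log2 differences being 0.67 ± 0.13 and 0.59 ± 0.16, and the last lost the threshold in 10 of the 30 alternative settings. In father-reared fish these peaks beyond 12 Mb, in the order given, had log2 differences of 0.62, 0.84, 0.26, 0.88 and 0.35. There groupXIX 13214997 and groupXIX 12441373 did not pass the threshold.

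Away from groupXIX the peaks higher in males included a group with large differences and low female counts. Whether reads from the Y entered these counts was not tested. Of the 103 higher peaks 37 were at least 2-fold higher in males, 36 were 1.5- to 2-fold and 30 were under 1.5-fold higher. The 103 lay on 37 sequences, and 25 of them on unplaced scaffolds, where 25 of 7935 tested peaks (0.315%) were higher, against 78 of 88298 (0.0883%) on the other linkage groups. GroupIV held 12 of them among 7058 tested peaks and groupXIII 10 among 4474. GroupXVII held 0 among 3550 tested peaks and groupXXI 0 among 2947. Every male lay above every female in 28 of the 103, against 0.0364% of all tested peaks off groupXIX. In 63 of the 103 all 7 brothers were above their sisters. Both counts come from the fish in which the peaks were called as higher in males, so they add no separate support. In no peak were all 8 females at 0 counts, and in 13 the female mean was under 25% of the male mean.

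The largest difference was at groupX 741348 to 741748. Males had a lowest, median and highest level of 10.3, 12.1 and 19.4 CPM and females 0, 0.616 and 1.70 CPM, with 467 counts over the 7 males and 22 over the 8 females, 2 of which had none. Every male was far above every female, and the log2 difference was 4.41 ± 0.26 (SE) with adjusted p = 7.45e-17 in edgeR's quasi-likelihood test. A second peak nearby, groupX 743083 to 743483, was also higher, by 3.65 on the log2 scale. At groupVII 8638901 to 8639301 males had 2.304, 3.98 and 6.43 CPM and females 0, 0.194 and 0.566 CPM. The 8 females together had 7 counts there, 2 of them having none, and the log2 difference was 4.23 ± 0.42. At groupIV 25639941 to 25640341 males had 4.39, 6.78 and 8.47 CPM and females 0.241, 0.755 and 1.42 CPM, a log2 difference of 3.144 ± 0.26.

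The remaining 3 of the 6 leading peaks had the same form. At groupIII 15591825 to 15592225 males had 3.55, 4.70 and 6.21 CPM and females 0, 0.466 and 1.13 CPM. At groupVII 18431922 to 18432322 males had 2.13, 2.72 and 5.42 CPM and females 0, 0.431 and 0.75 CPM. At groupXII 17639208 to 17639608 males had 3.34, 5.26 and 6.77 CPM and females 0.277, 0.664 and 1.13 CPM. The sexes did not overlap in any of these 3, and the log2 differences were 3.12 ± 0.34, 2.89 ± 0.39 and 2.75 ± 0.29 (SE). In father-reared fish the 6 peaks, in the order given, had log2 differences of 3.36 ± 0.21, 2.49 ± 0.33, 2.73 ± 0.30, 3.35 ± 0.39, 2.21 ± 0.47 and 2.57 ± 0.33, each past the threshold.

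Most higher peaks stood alone, but some lay close together. Joined at a distance of 10 kb, the 103 made 93 places, of which 8 held more than 1 peak, 18 peaks in all. Over all tested peaks off groupXIX 0.107% were higher. How often higher peaks would lie this close by chance was not tested. The widest of these, groupXIII 8052744 to 8062096, held 3 higher peaks of the 4 tested in it, with log2 differences of 0.87 to 1.41. On scaffold_119, between 46479 and 52418, all 3 tested peaks were higher, with log2 differences of 0.97 to 1.28 in orphaned and 1.18 to 1.48 in father-reared fish. Counts were also summed over whole sequences. None of the 20 other linkage groups nor the scaffolds together passed the threshold (0 of 21 sums, 0 at an unadjusted p under 0.05, edgeR's quasi-likelihood test, and 0 also with limma and family as a random block). All 21 sums stood slightly higher in males, by 0.017 (groupI) to 0.030 (groupXIV) on the log2 scale. Before the scaling factor the 21 sums add up to the library size in every fish. A shift shared by all 21 therefore comes with that factor and is not a result about the linkage groups. The median peak off groupXIX had a log2 difference of 0.00. Of 239 scaffold sums 3 were higher in males and 0 lower. Scaffold_1354 was higher by 0.88 ± 0.18 (SE), scaffold_179 by 0.61 ± 0.14 and scaffold_108 by 0.20 ± 0.05 on the log2 scale, with adjusted p = 0.0359, 0.0439 and 0.0439. All 3 scaffolds hold peaks that are among the 103 higher ones, so these sums are not separate from those calls. The peaks start at 1776 on scaffold_1354, at 109023 on scaffold_179, and at 59714, 78741 and 348013 on scaffold_108. With 1 fish left out, 8 of the 15 choices left 0 scaffolds past the threshold.

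The 17 lower peaks off groupXIX were smaller differences, 8 of them under 1.5-fold. Every male lay below every female in 3 of them, against 0.0104% of all tested peaks off groupXIX, but the peaks had been called in these same fish. With p-values adjusted off groupXIX alone only 1 of the 17, scaffold_858 5856 to 6256, was past the threshold. At scaffold_858 5856 to 6256 males had a lowest, median and highest level of 1.86, 1.91 and 3.21 CPM and females 4.31, 5.67 and 7.36 CPM, without overlap, and the log2 difference was -1.41 ± 0.20 (SE) with adjusted p = 1.94e-06 in edgeR's quasi-likelihood test. A second peak on the same scaffold, 6578 to 6978, was lower by -0.87 ± 0.21. At groupXI 4403191 to 4403591 the log2 difference was -1.12 ± 0.31, but males had 4.61, 13.0 and 17.2 CPM and females 7.48, 13.4 and 78.1 CPM: the medians were close and only 1 male lay below every female. It lost the threshold in 13 of the 30 alternative settings tried.

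The other 4 named peaks were lower by 0.67 to 0.71 on the log2 scale. At groupXV 3107766 to 3108166 males had 2.44, 4.61 and 6.69 CPM and females 5.14, 7.11 and 10.8 CPM, and at groupIX 14147890 to 14148290 males had 2.48, 4.18 and 5.57 CPM and females 4.09, 6.77 and 8.62 CPM. At groupXI 10227069 to 10227469 males had 3.01, 3.97 and 10.3 CPM and females 5.54, 7.44 and 9.65 CPM, the highest male, of family 22, lying above every female. These 3 overlapped. At groupVIII 7485389 to 7485789 males had 3.80, 4.08 and 4.78 CPM and females 5.33, 6.60 and 8.27 CPM, without overlap. Of the 30 alternative settings, groupXI 10227069 lost the threshold in 14, groupXV 3107766 in 6, and groupIX 14147890 and groupVIII 7485389 in 2 each. In father-reared fish these 4 had log2 differences of -0.18, -0.11, -0.29 and -0.26 in the same order, none past the threshold.

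**Figure D4:**
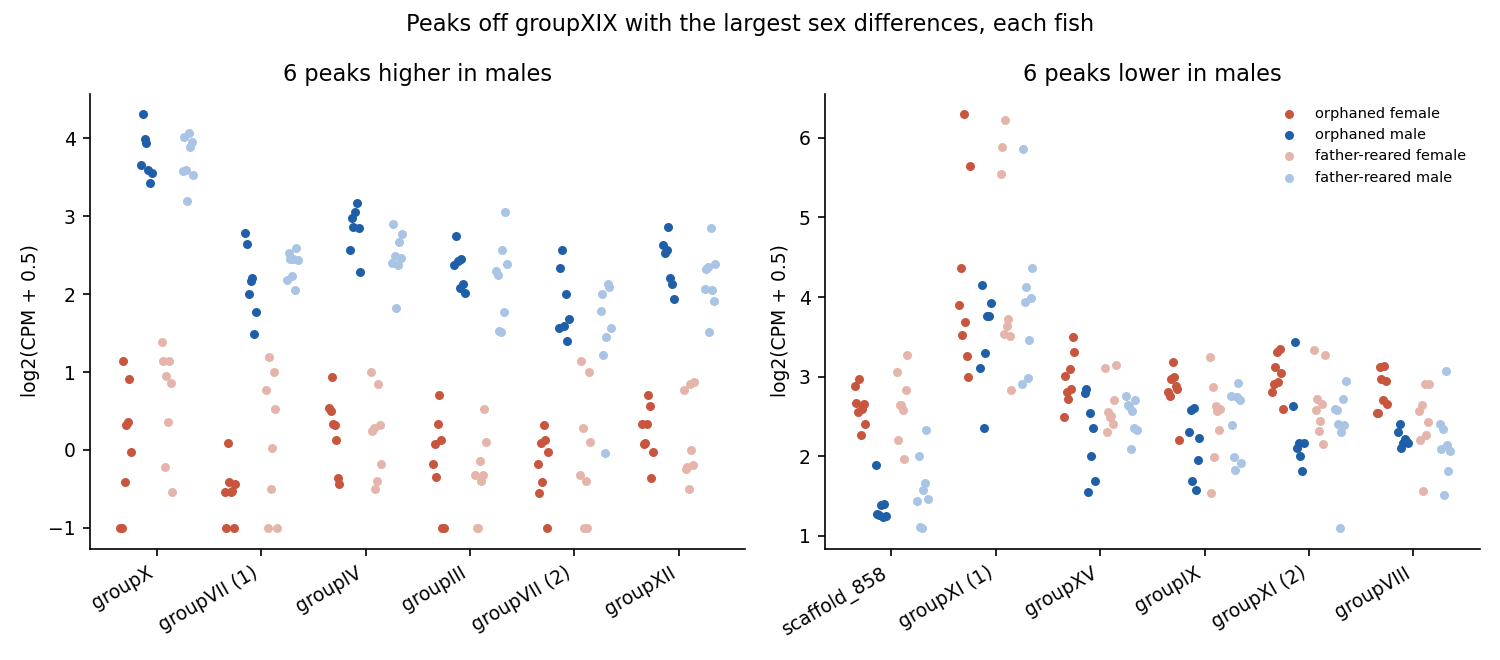
Level in each fish, as log2(CPM + 0.5), of the 6 peaks off groupXIX with the largest positive (left) and negative (right) sex differences in orphaned fish, with orphaned fish in dark and father-reared fish in pale colours. The peaks are named by linkage group or scaffold, numbered where a group has 2, in the order of the text. On the left every orphaned male lies above every orphaned female, and on the right the sexes separate fully at scaffold_858 and groupVIII.

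The father-reared fish share no animal with the orphaned fish and were not used to choose these peaks. In their own fit over the 100571 peaks 1884 were lower (1.87%) and 126 higher (0.125%) in males, and off groupXIX 19 lower (0.0197%) and 100 higher (0.104%). Of the 1902 groupXIX peaks lower in orphaned males 1792 (94.2%) were past the threshold in father-reared fish in the same direction and 0 in the opposite one. Of the 28 higher groupXIX peaks 12 passed. By stretch 1476 of the 1520 lower peaks from 4 to 12 Mb passed again, 276 of the 330 beyond 12 Mb and 40 of the 52 from 2 to 4 Mb.

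Off groupXIX 60 of the 103 higher peaks passed again in father-reared fish and 2 of the 17 lower ones, both on scaffold_858. The share that passed again differed by size, in classes chosen after the values were seen. Of the 37 peaks at least 2-fold higher 34 passed again, of the 36 from 1.5- to 2-fold 23, and of the 30 under 1.5-fold 3. Their median log2 differences in orphaned fish were 1.42, 0.78 and 0.51, and in father-reared fish 1.58, 0.74 and -0.04. Of the 8 lower peaks under 1.5-fold 0 passed again, in this edgeR fit and also at an unadjusted p under 0.05. With p-values adjusted off groupXIX alone, 41 higher peaks and 1 lower peak were left in orphaned fish, and 40 of the 41 and the lower peak passed in father-reared fish. Without the male of family 22, 60 of the 269 higher and 2 of the 56 lower peaks passed again.

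**Figure D5:**
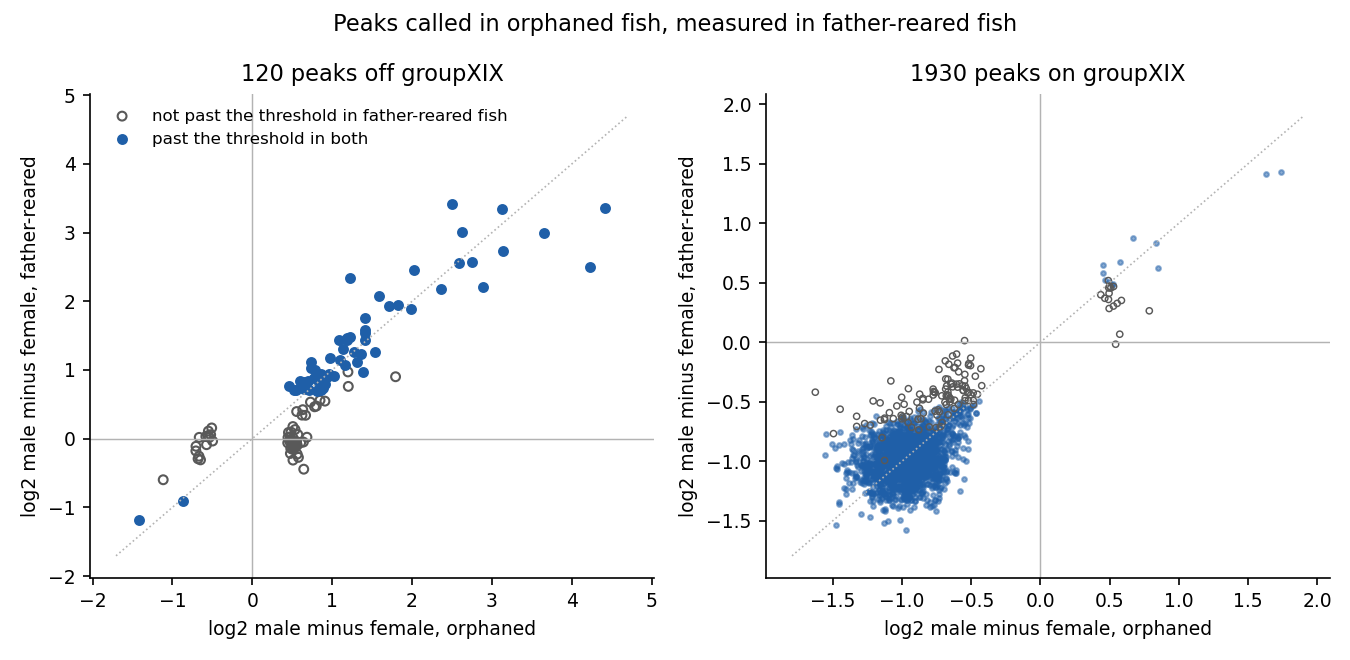
Log2 difference, males minus females, of the 120 peaks off groupXIX (left) and those on it (right) called in orphaned fish, against the same difference in father-reared fish, filled where the peak also passed the threshold there. The dotted diagonal marks equal values. Points at least 2-fold higher in orphaned males are all above 0 in father-reared fish, at 0.76 to 3.42, while those under 1.5-fold have a median of -0.04 on the vertical axis.

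Whether the sex difference depended on care was tested directly over all 31 fish. The interaction of sex and care passed the threshold in 0 of 100779 peaks by edgeR's quasi-likelihood test, with 3566 (3.54%) at an unadjusted p under 0.05. DESeq2 called 0, with 3166 at an unadjusted p under 0.05. The brother-minus-sister difference in groupXIX share was -0.944 ± 0.0752 percentage points over the 7 orphaned pairs and -0.930 ± 0.0862 over the 8 father-reared pairs (SD). Exact permutation over the 15 pairs, for this share and the 4 stretches and adjusted over these 5 tests, gave p = 0.969 for each.

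The peaks with the lowest unadjusted p for the interaction did not pass the adjusted threshold either. At groupI 4007921 to 4008321 orphaned males had a lowest, median and highest level of 4.73, 5.21 and 6.88 CPM and orphaned females 2.26, 3.43 and 4.66 CPM, whereas father-reared males had 2.39, 3.70 and 5.17 CPM and father-reared females 4.08, 5.30 and 6.08 CPM. The sexes did not overlap among the orphaned fish and stood the other way round, overlapping, among the father-reared. The interaction was 1.10 ± 0.25 (SE) on the log2 scale with adjusted p = 1.00 in edgeR's quasi-likelihood test. The next 4 by unadjusted p, scaffold_89 10177, scaffold_56 749559, groupIV 941616 and groupXX 4494635 (start positions), had interactions of -5.77 ± 1.35, -1.79 ± 0.42, -0.66 ± 0.17 and -0.82 ± 0.21, all with adjusted p = 1.00. At scaffold_89 the orphaned females ran from 0.181 to 23.1 CPM with a median of 0.244, and the father-reared males from 0.372 to 24.7 CPM. Orphaned males ran from 0 to 0.782 CPM, and father-reared females from 0 to 23.7 CPM with a median of 0.304. This peak had too few counts to be tested among the orphaned fish alone.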

How the data were processed

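ATAC-seq libraries of 31 brain sides were made from cryopreserved homogenate by Tn5 transposition and PCR, per the labels' protocols. DiffBind 3.14.0, MACS2 2.2.5, Picard 2.10.1, SAMtools 1.9, Bowtie2 2.3.5.1 and FastQC 0.11.8 were used, per the submitters' processing notes. The genome build, duplicate handling, any transposase offset and the samples on which peaks were called were not given in the sources used here, and positions are as the table gives them. The authors deposited unnormalized counts, as whole reads in each peak. Reads amplified by PCR without molecular identifiers do not stand for independent molecules.

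Library sizes and TMM factors came from peaks off groupXIX. Peaks passing filterByExpr (minimum count 10, by sex) were tested with edgeR 4.0.16 (R 4.3.3) in a quasi-likelihood fit of sex on the 15 orphaned fish, with p-values adjusted over all peaks by Benjamini-Hochberg. SEs follow from the F statistic. Levels are CPM of the scaled counts off groupXIX. Father-reared fish were fitted apart on the same peaks, and the interaction in a model of 4 group means. Single values were compared by exact permutation over fish or pairs (numpy 2.4.6). P-values set a difference against the spread between fish, or between pairs in the tests over pairs. The fits were tested on simulated counts. Median counts per peak were 28 to 59 per library, which limits small differences.

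The named peaks were the 6 highest and 6 lowest log2 differences among called peaks averaging 1 CPM or more, separately for groupXIX and the rest, skipping neighbours within 10 kb, plus the 3 strongest peaks past and the 3 strongest short of the threshold from 4 to 12 Mb, the 5 with the lowest interaction p, and the scaffold sums past the threshold (scaffolds with at least 3 peaks and a mean of at least 50 counts). The few others were chosen after their values were seen. The comparison, the stretches and the lists were chosen with earlier results of these data known. A gene table of another assembly was not used. Alternatives were DESeq2 1.42.0, other scalings, filters, thresholds and adjustments, a robust variance prior, brain side or library stretch as covariates, right sides only, all 31 fish, family as a fixed or random (limma 3.58.1) block, and each fish left out.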

Additional observations from a re-analysis of the deposited data

Results flagged for a closer look

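Single fish were set against the rest of their sex by Dixon's test, for the share and stretches of groupXIX, library measures and the named peaks, 76 groups in all. Chance flags about 1 group in 20, and 5 values, from 3 fish, were far from the others. At groupXI 10227069 the male of family 22 had 10.3 CPM, with the next highest male at 5.69. At groupXIX 18670782 the same male was lowest, with 14.3 CPM against 23.1 in the next. At groupXIX 415478 the male of family 11 had 6.92 CPM against 3.92 in the next, and at scaffold_858 5856 it had 3.21 CPM against 2.13. At groupVII 8638901 the female of family 22 was highest, with 0.566 CPM against 0.254 in the next, still below every male.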

How the results depend on the processing

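No result past the threshold changed direction in the alternatives run, while groupXIX 8846800, not past it, ranged from -0.09 to 0.10 on the log2 scale. The lower peaks on groupXIX stayed within 1862 to 1909 with each fish left out and 1644 to 2157 otherwise. The 28 higher peaks on groupXIX became 15 with library stretch as covariate, 12 on right sides only, 142 with p-values adjusted on and off groupXIX separately, and 12 to 51 with each fish left out (17, 18, 51, 17 and 12 without the male of family 32, 25, 22, 40 and 39). The 103 higher peaks off it became 63 on right sides only, 41 when adjusted separately, and 74 to 269 with each fish left out, 269 being without the male of family 22. The 17 lower ones became 35 with the replicate block as a fixed family term, 11 with library stretch, 33 on right sides only, 53 at an adjusted p under 0.10, 1 when adjusted separately, and 12 to 56 with each fish left out (35 without the female of family 11, 26 without the male of family 25, 56 without that of family 22). Omitting the male of family 22 and adjusting off groupXIX alone, chosen after seeing the data, gave 44 higher and 3 lower. Of the peaks called in orphaned fish, 24 of the 28 higher on groupXIX passed in father-reared fish at an unadjusted p under 0.05, and 1 lower one off it when adjusted off groupXIX alone, a setting added after seeing the data.

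The 3 scaffold sums became 0 without a scaling factor, with brain side as covariate and on right sides only, 1 with the fixed family block, with library stretch and with all 31 fish, and 0 to 3 with each fish left out. It was 0 without the male of family 30, 11, 25 or 22 or the female of family 32, 11, 4 or 22, and 1 without the male of family 32 or 39 or the female of family 40. The stretch from 2 to 4 Mb was 0.920 in the replicate block (brother over sister, exact p = 0.0625) and 0.929 on right sides only (exact p = 0.0635), and beyond 12 Mb 0.951 on right sides only (exact p = 0.0952), none past the threshold. The causes were not tested. Of 1127 comparisons for 38 named peaks and scaffolds, 1028 kept their side of the threshold and 99 lost it.

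The shared numbers did not pair the fish by their counts: deviations from the group means correlated at -0.0932 to 0.113 over the 7 pairs (mean 0.0383, against -0.00515 over 49 unrelated male-female combinations), and 2 of 7 brothers correlated best with their own sister. Only 3 of the 7 pairs shared a brain side, which limits what these correlations can show about family. The paired fit with family fixed gave 1892 lower and 19 higher peaks on groupXIX and 110 higher ones off it. The median 95% interval off groupXIX reached 0.28 to each side on the log2 scale, which limits what small differences can show.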
